A study of Mus musculus with 6 samples.

Results

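The 9 genes for C-type lectin receptors of macrophages, *Clec4n*, *Clec4d*, *Clec4e*, *Clec7a*, *Clec12a*, *Clec10a*, *Clec5a*, *Clec4a2* and *Clec4a3*, were followed in bone-marrow-derived macrophages (BMDMs) kept with or without excess NaCl. They were chosen by their symbols as a family of innate receptors, and all 9 were among the 15903 genes tested. Marrow of 3 *Cx3cr1*GFP mice on the C57BL/6J background, which carry a GFP sequence in the *Cx3cr1* locus, was cultured for 7 days with 10 ng/ml M-CSF, and the cells of each mouse were then split into an unstimulated control (n = 3 libraries) and a culture with 62 mM excess NaCl for 24 h (n = 3 libraries). The *Cx3cr1*GFP allele and M-CSF are thus common to both groups, and no library came from wild-type cells or from tissue. The comparison asks how the expression of these receptors differs when macrophages are held in excess salt.

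C-type lectin receptors are membrane proteins whose extracellular lectin-like domain binds sugars, glycolipids or proteins of microbes and dying cells. The activating members signal through the kinase Syk, either by a tyrosine motif of their own (*Clec7a*, Dectin-1, the receptor for fungal beta-glucan) or by an adaptor: Fc receptor gamma chain (*Fcer1g*) for Dectin-2 (*Clec4n*, alpha-mannans), MCL (*Clec4d*) and Mincle (*Clec4e*, glycolipids of mycobacteria), and DAP12 (*Tyrobp*) for *Clec5a*. Downstream, CARD9 with BCL10 and MALT1 activates NF-kappaB and cytokine genes. The inhibitory members *Clec12a* (a receptor for uric acid crystals) and *Clec4a2* (DCIR) instead carry an inhibitory tyrosine motif, the ITIM, which recruits the phosphatases SHP-1 and SHP-2. *Clec10a* (MGL1) binds terminal galactose and N-acetylgalactosamine, and *Clec4a3* is a close relative of *Clec4a2*. In macrophages, *Clec4e* is known as a gene that inflammatory stimuli induce strongly.

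In the salt comparison, none of the 9 receptors passed the threshold in edgeR without regard to the mouse, where 0.654% of all genes passed. With the mouse as a block *Clec4n* alone passed, as lower in NaCl, where 8.9% of all genes passed in either direction. DESeq2 with the same block did not call *Clec4n* (adjusted p = 0.151). The abundant receptors *Clec4d*, *Clec12a* and *Clec7a* differed little to moderately, with group means 1.04-, 1.10- and 1.27-fold lower in NaCl. Differences between mice were larger for some members: *Clec4a3* was 3.24-fold and *Clec10a* 2.12-fold higher in mouse 1 than in the mean of the other mice. These folds are of each mouse's mean over its control and NaCl library. In each treatment group, mouse 1 held the highest value of both genes.

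The coding sequences show how the members divide by function, and the short stretches on which that division rests are given here 5′ to 3′. They were read from the longest open reading frame of each gene's coding transcripts in GENCODE M21, with 12 flanking bases on each side in lower case. The first set holds the triplet of codons in the lectin domain that sets sugar preference, in capitals: the mannose type in *Clec4n* (from codon 168) and *Clec4e* (from codon 169), the galactose type in *Clec10a* (from codon 260), and a variant of the mannose type in *Clec4a2* (from codon 221) and *Clec4a3* (from codon 196).
Clec4n: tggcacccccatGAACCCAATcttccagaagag
Clec4e: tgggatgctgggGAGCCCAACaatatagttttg
Clec10a: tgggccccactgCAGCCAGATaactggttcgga
Clec4a2: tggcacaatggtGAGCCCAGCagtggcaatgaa
Clec4a3: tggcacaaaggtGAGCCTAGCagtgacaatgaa

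The second set holds the signalling motif near the start of the protein, in capitals: the single-tyrosine activating motif of *Clec7a* (from codon 11) and the ITIM of *Clec12a* and *Clec4a2* (from codon 5 in both). The search returned no such motif in *Clec4a3*, whose lectin stretch otherwise resembles that of *Clec4a2*, nor in *Clec4n*, *Clec4d*, *Clec4e*, *Clec5a* or *Clec10a*, and the sugar-binding triplet was not matched in *Clec4d*, *Clec7a*, *Clec12a* or *Clec5a*.
Clec7a: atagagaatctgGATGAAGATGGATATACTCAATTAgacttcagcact
Clec12a: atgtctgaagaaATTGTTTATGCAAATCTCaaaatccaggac
Clec4a2: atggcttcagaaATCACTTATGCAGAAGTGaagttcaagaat

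Of the members, 8 lie on chromosome 6, and *Clec10a* lies on chromosome 11. In RefSeq's gene order on chromosome 6, *Clec4n*, *Clec4d* and *Clec4e* are direct neighbours, next to the stretch that holds *Clec4a3* and *Clec4a2*. Promoter windows of 250 bases before to 50 bases after the start were found in RefSeq (GRCm38.p6) for 7 of the 9 members. None was found for *Clec4n* and *Clec10a*. The windows of *Clec4d* and *Clec4e* are printed because these neighbours encode partner proteins and stood far apart in level. Capitals mark matches on either strand to the PU.1 type motif GAGGAA and the C/EBP type motif TTGCNNAA, and the windows are at chr6:123261857-123262156 (plus strand) and chr6:123289822-123290121 (minus strand).
Clec4d: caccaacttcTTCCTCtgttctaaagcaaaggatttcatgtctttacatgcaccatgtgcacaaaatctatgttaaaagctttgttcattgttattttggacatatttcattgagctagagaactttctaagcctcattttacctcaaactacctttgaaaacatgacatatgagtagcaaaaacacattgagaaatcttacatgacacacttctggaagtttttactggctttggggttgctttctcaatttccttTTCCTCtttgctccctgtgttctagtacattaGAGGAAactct
Clec4e: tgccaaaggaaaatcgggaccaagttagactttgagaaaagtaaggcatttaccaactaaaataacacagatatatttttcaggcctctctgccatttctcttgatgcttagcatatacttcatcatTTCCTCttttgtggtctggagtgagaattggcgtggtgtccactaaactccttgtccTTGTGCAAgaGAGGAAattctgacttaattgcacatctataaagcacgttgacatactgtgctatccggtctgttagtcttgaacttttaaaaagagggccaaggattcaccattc

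GAGGAA occurred 3 times in the *Clec4d* window and 2 times in the *Clec4e* window, and TTGCNNAA occurred 1 time in the *Clec4e* window and 0 times in that of *Clec4d*. Over all 32851 RefSeq promoter windows of this length, 28.3% held GAGGAA and 10.8% held TTGCNNAA. Among the other windows, GAGGAA was matched in those of *Clec7a*, *Clec12a* and *Clec5a* and in 1 of the windows of *Clec4a3*, and not in that of *Clec4a2*. The NFAT type motif TGGAAA, in 21.4% of all windows, was matched in those of *Clec5a* and *Clec4a2* and in the other window of *Clec4a3*, and an NF-kappaB type motif, in 0.411% of all windows, was matched in 0 of the members' windows. These matches are letters in a window and were not tested as binding sites.

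The cells had the expression of macrophages, with *Lyz2* between 9219 and 23249 CPM and *Csf1r* between 1969 and 3869 CPM in the 6 libraries (CPM, the read count relative to the library's total, scaled by TMM in edgeR). The summed level of 8 macrophage markers was 15047 to 16310 CPM in control and 23462 to 31035 CPM in NaCl, a difference that lay mostly in *Lyz2* (means of 9817 and 19148 CPM) and *Csf1r* (2083 and 3443 CPM), since 4 of the 8 had log2 fold changes below 0 with the mouse as block and the median was -0.0020. The summed level of 9 dendritic cell markers was 26.4 to 48.2 and 20.3 to 59.8 CPM, that of 12 neutrophil markers 270 to 569 and 296 to 412 CPM, and that of 7 monocyte markers 183 to 269 and 247 to 338 CPM. None of 5 T and NK cell markers reached a total of 10 counts. With the mouse as block in edgeR, the macrophage markers *Lyz2*, *Csf1r* and *Cx3cr1* and the monocyte-list genes *Ifitm6* and *Fn1* were higher in NaCl and the granule genes *Mpo* and *Ngp* were lower, and their part in the receptors' values was not tested. In bulk RNA, fewer cells of a type and less RNA per cell cannot be told apart. Total counts ranged from 4088065 in NaCl replicate 3 to 20123570 in control replicate 3, and 1235 of the genes tested had no count in NaCl replicate 3 against 79 in control replicate 3.

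To compare levels between receptors, CPM were divided by the exonic length of each gene (CPM per kb). *Clec4d* was the highest in all libraries, with a median of 268 CPM per kb and a range from 249 to 289. *Clec7a* followed with a median of 139 (80.5 to 159) and *Clec12a* with 80.4 (62.0 to 89.0). *Clec4a2* had a median of 42.6, *Clec5a* of 15.3 and *Clec4a3* of 10.1 CPM per kb. The lowest were *Clec4n*, *Clec4e* and *Clec10a*, with medians of 3.46, 3.21 and 2.29 CPM per kb. Ranges over the 6 libraries overlapped between the neighbours *Clec7a* and *Clec12a*, *Clec5a* and *Clec4a3*, *Clec4n* and *Clec4e*, and *Clec4e* and *Clec10a*, and they did not overlap between the other neighbours in this order. With the length of the longest coding transcript instead, *Clec12a* ranked above *Clec7a*, and *Clec4e* above *Clec4n*.

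**Figure D1:**
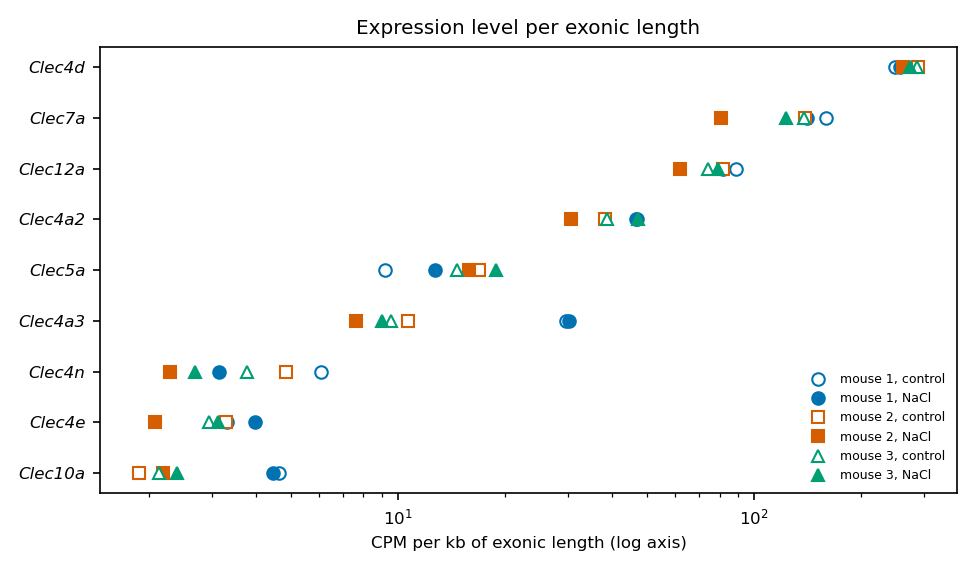
Expression level of the 9 receptors in every library, in CPM per kb of exonic length on a log axis; open symbols are control and filled symbols NaCl libraries, and shapes mark the mouse. *Clec4d* lies between 249 and 289 in all libraries, and the pair of *Clec4a3* values near 30 belongs to mouse 1.

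The gamma-chain-coupled receptors of microbial sugars and glycolipids were the first group examined. *Clec4n* was at 8.64, 6.88 and 5.35 CPM in control replicates 1, 2 and 3 and at 4.47, 3.26 and 3.83 CPM in NaCl replicates 1, 2 and 3. Every NaCl library was below every control library, and *Clec4n* was the only member whose groups did not overlap, which held for 19.0% of all genes tested. The group means were 6.96 ± 1.65 and 3.86 ± 0.60 CPM (SD, n = 3), which is 1.8-fold lower in NaCl. These values rest on few reads, between 16 in NaCl replicate 3 and 106 in control replicate 3.

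In edgeR's quasi-likelihood test without the mouse, the log2 fold change of *Clec4n* was -0.84 (SE 0.26, adjusted p = 0.223 by the Benjamini-Hochberg method over all genes tested). With the mouse as a block it was -0.88 (SE 0.23, adjusted p = 0.0126 in edgeR). With this block 8.9% of all genes passed in either direction and 4.3% passed as lower in NaCl, and against this background 1 call among 9 receptors says nothing about the family as a whole. The call was not made by DESeq2 with the same block (adjusted p = 0.151) or by edgeR with the block in libraries thinned at random to 4088065 counts each (adjusted p = 0.147). In edgeR with the block it was also lost without mouse 1 (adjusted p = 0.121) and without mouse 2 (adjusted p = 0.0506), while the log2 fold change stayed between -1.0 and -0.65 with any library or mouse left out.

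*Clec4d*, the partner of *Clec4e* in a heteromeric receptor, was at 398, 461 and 457 CPM in control and at 412, 419 and 437 CPM in NaCl. The groups overlapped, with the lowest and the highest value both in control. With the mouse as block, the log2 fold change was -0.05 with a 95% interval from -0.29 to 0.18 (edgeR adjusted p = 0.856).

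*Clec4e*, or Mincle, was at 16.5, 16.3 and 14.7 CPM in control and at 19.7, 10.3 and 15.6 CPM in NaCl, so that the NaCl libraries lay on both sides of the control range. Its log2 fold change with the block was -0.11 with a 95% interval from -0.46 to 0.25 (edgeR adjusted p = 0.789). The value without the block, -0.06, became 0.06 in thinned libraries. The interval leaves out a 2-fold change of Mincle mRNA in either direction.

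Because these proteins work as partners, their ratios within a library were compared. The number of CPM of *Clec4d* per CPM of *Clec4e* was 24.2, 28.3 and 31.1 in control and 20.9, 40.5 and 28.1 in NaCl, and the exact two-sided permutation test of the log2 ratio gave p = 1.0. *Clec4n* amounted to 2.17%, 1.49% and 1.17% of *Clec4d* in control and to 1.09%, 0.78% and 0.88% in NaCl. This ratio was lower in every NaCl library (difference of -0.78 on the log2 scale), and the exact two-sided permutation test gave p = 0.1, the smallest value that 3 against 3 libraries allow. Both permutation tests left out the pairing by mouse. As *Clec4d* differed little, this ratio follows *Clec4n* and is no separate result.

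**Figure D2:**
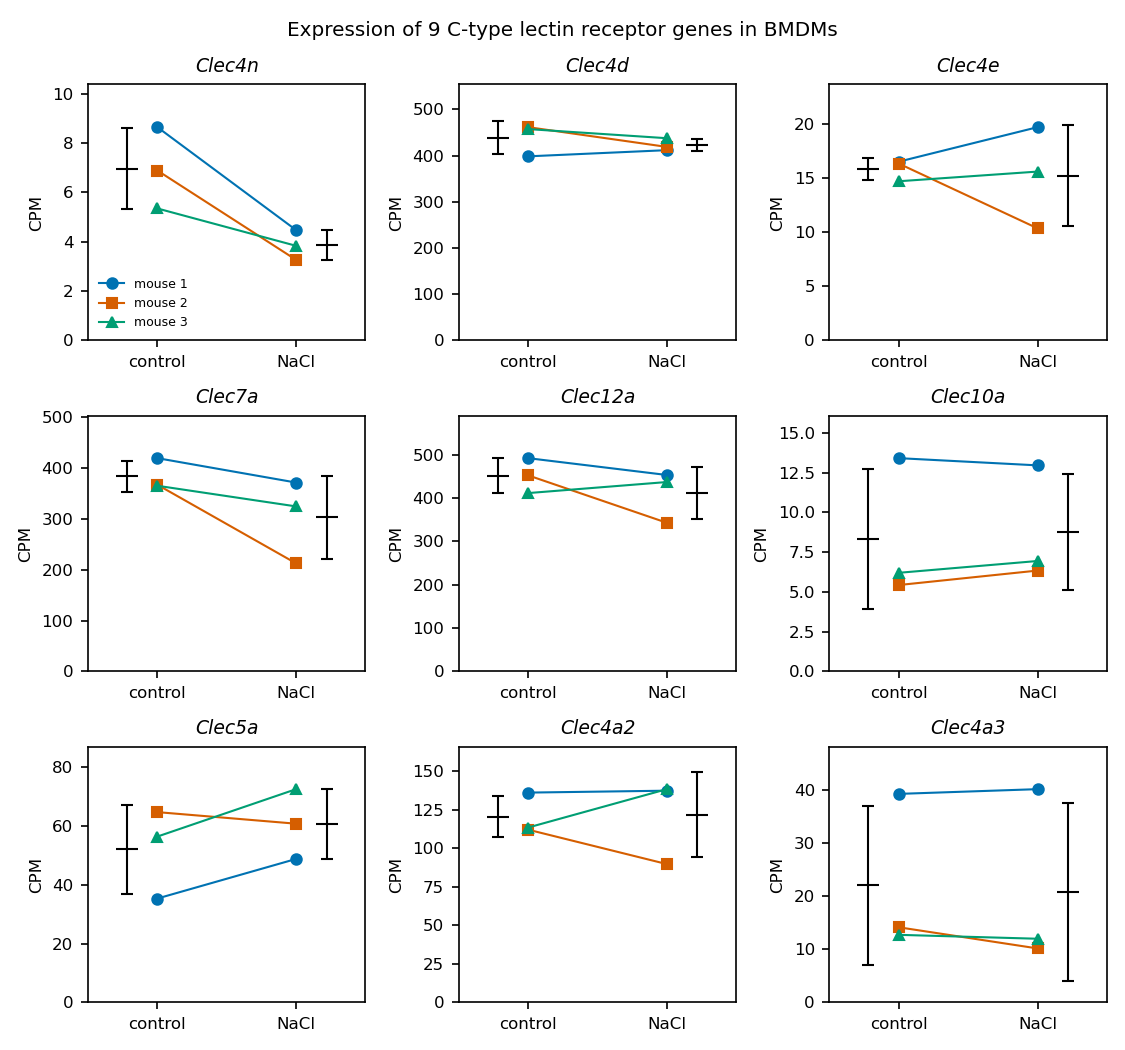
Expression of each receptor (CPM, axes from 0) in the control and NaCl library of each mouse, joined by a line, with the mean ± SD of 3 libraries in black at the sides. The 3 lines of *Clec4n* fall from 5.35 to 8.64 CPM down to 3.26 to 4.47 CPM, and the *Clec4a3* and *Clec10a* lines of mouse 1 run above those of the other mice.

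Among the receptors that signal through Syk by other routes, *Clec7a* (Dectin-1) was at 419, 367 and 365 CPM in control and at 371, 212 and 324 CPM in NaCl. NaCl replicate 2 was far below the other 5 libraries, and NaCl replicate 1 lay within the control range. The log2 ratio of NaCl to control within a mouse was -0.18, -0.79 and -0.17 in mice 1, 2 and 3. The fitted log2 fold change was -0.34 (SE 0.19, edgeR adjusted p = 0.510) and -0.38 with the block (SE 0.13, edgeR adjusted p = 0.0645), with a 95% interval from -0.64 to -0.11 that is not adjusted for the number of genes. With the block and without mouse 2 it was -0.16 (edgeR adjusted p = 0.362), and without mouse 3 it was -0.47 (edgeR adjusted p = 0.0491).

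*Clec5a*, a DAP12-coupled receptor known for binding flaviviruses, was at 35.4, 64.8 and 56.4 CPM in control and at 48.8, 60.8 and 72.6 CPM in NaCl. The NaCl library was above the control library in mice 1 and 3 and below it in mouse 2, and the groups overlapped. With the block the log2 fold change was 0.24 with a 95% interval from -0.03 to 0.50 (edgeR adjusted p = 0.296), and without mouse 2 it was 0.42 and past the threshold (edgeR adjusted p = 0.00897).

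The inhibitory members carry the ITIM printed above. *Clec12a* was at 492, 452 and 411 CPM in control and at 453, 343 and 437 CPM in NaCl. Again NaCl replicate 2 was the lowest library, and the other NaCl libraries lay within the control range. Its log2 fold change with the block was -0.14 with a 95% interval from -0.39 to 0.10 (edgeR adjusted p = 0.543).

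*Clec4a2* (DCIR) was at 136, 112 and 113 CPM in control and at 137, 89.7 and 138 CPM in NaCl, with NaCl replicate 2 below and the other NaCl libraries just above the control range. Its log2 fold change was 0.01 without and -0.01 with the block, with a 95% interval from -0.27 to 0.25 in the latter (edgeR adjusted p = 0.982). *Clec4a2* shared 3.24% of its 75-base windows with other genes, *Clec4a4* and *Clec4b1*, to which single reads of this length could not be assigned.

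*Clec10a* and *Clec4a3*, the remaining members, both varied more with the mouse than with salt. *Clec10a* was at 13.4, 5.44 and 6.20 CPM in control and at 13.0, 6.35 and 6.95 CPM in NaCl. *Clec4a3* was at 39.2, 14.1 and 12.7 CPM in control and at 40.1, 10.2 and 12.0 CPM in NaCl. In both genes the control and NaCl libraries of mouse 1 were the highest pair. The log2 fold change with the block was 0.09 for *Clec10a* (95% interval from -0.29 to 0.48, edgeR adjusted p = 0.836) and -0.16 for *Clec4a3* (95% interval from -0.48 to 0.15, edgeR adjusted p = 0.605). Without the block the interval of *Clec4a3* ran from -1.28 to 1.19.

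Over the 9 receptors, 0 passed the test without the mouse, where 0.654% of all genes passed, and 1 had an unadjusted p under 0.05. DESeq2 also called 0, with and without the block. The median log2 fold change of the receptors was -0.06 without and -0.11 with the block, beside -0.01 and -0.02 over all genes tested. For 8 of the 9, the 95% interval with the block lay within 1 log2 unit in either direction, which is a 2-fold change, and the exception was *Clec4n*, whose interval ran from -1.34 to -0.41. *Clec4n* and *Clec7a* were the 2 receptors with the same direction in 3 of 3 mice. The share of all genes with this property is not given, so the count is a description only.

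The lowest of the 6 libraries was NaCl replicate 2 for 6 of the 9 receptors, namely *Clec4n*, *Clec4e*, *Clec7a*, *Clec12a*, *Clec4a2* and *Clec4a3*. The share of all genes with their lowest value in this library was not counted, so no result about the receptors follows. The summed level of the 9 receptors was 1154 CPM in this library and between 1442 and 1558 CPM in the others. Without this library the median log2 fold change of the receptors was 0.18 in place of -0.06.

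**Figure D3:**
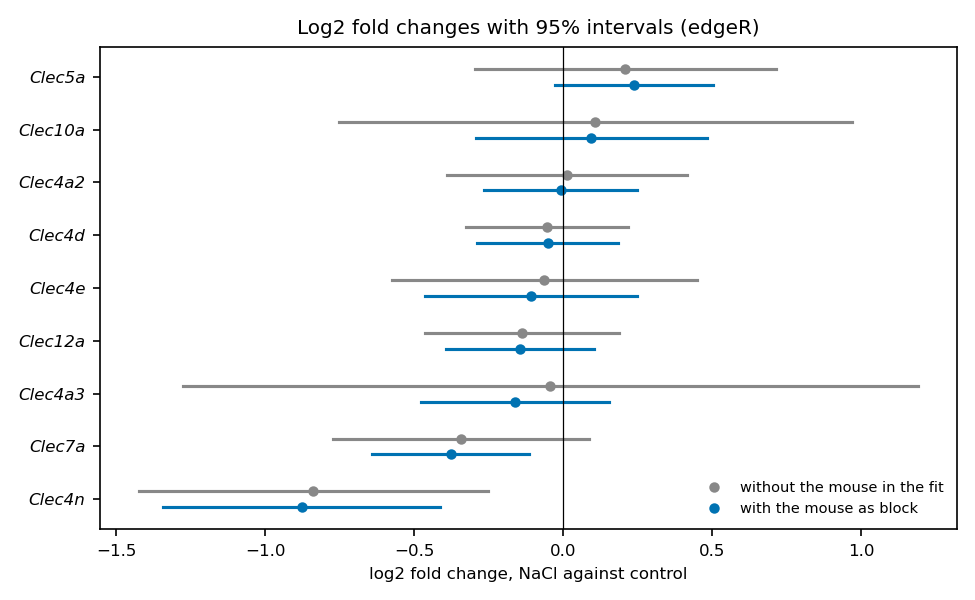
Log2 fold changes of NaCl against control for the 9 receptors (points) with 95% intervals (lines, not adjusted for the number of genes), from edgeR without the mouse (grey) and with the mouse as block (blue). The intervals of *Clec4n* and, with the block, *Clec7a* lie below 0, and that of *Clec4a3* spans -1.28 to 1.19 without the mouse and -0.48 to 0.15 with it.

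The mice themselves were then compared, in a test added after these values were seen: edgeR's quasi-likelihood F test of the mouse in the fit with mouse and treatment. By this test 3 of the 9 receptors differed between mice, against 8.89% of all genes tested. The animal and whatever else its libraries shared in culture and handling cannot be told apart.

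*Clec4a3* differed most, with edgeR's adjusted p = 5.51e-08, and was lower than in mouse 1 by log2 differences of -1.72 in mouse 2 and -1.70 in mouse 3. It passed in each of the 12 alternatives to this test, which were DESeq2's likelihood ratio test, 2 other scalings, 2 other filters, thinned libraries and leaving out each library.

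*Clec10a* (edgeR adjusted p = 0.000856) was also lower in mouse 2 and mouse 3 than in mouse 1, by log2 differences of -1.16 and -1.02, and lost the call without control replicate 1 (edgeR adjusted p = 0.154). It shared 4.44% of its 75-base windows with *Mgl2*, its closest relative.

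*Clec5a* went the other way, with log2 differences of 0.60 in mouse 2 and 0.61 in mouse 3 relative to mouse 1 (edgeR adjusted p = 0.0168). Its call was lost without control replicate 1, NaCl replicate 1 or NaCl replicate 3 (edgeR adjusted p = 0.711, 0.178 and 0.0633), with total count scaling (adjusted p = 0.0788), in thinned libraries (adjusted p = 0.0549) and in DESeq2 (adjusted p = 0.0547). For *Clec4d* the same test gave an adjusted p of 0.787 in edgeR, with values between 398 and 461 CPM in all 6 libraries.

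**Figure D4:**
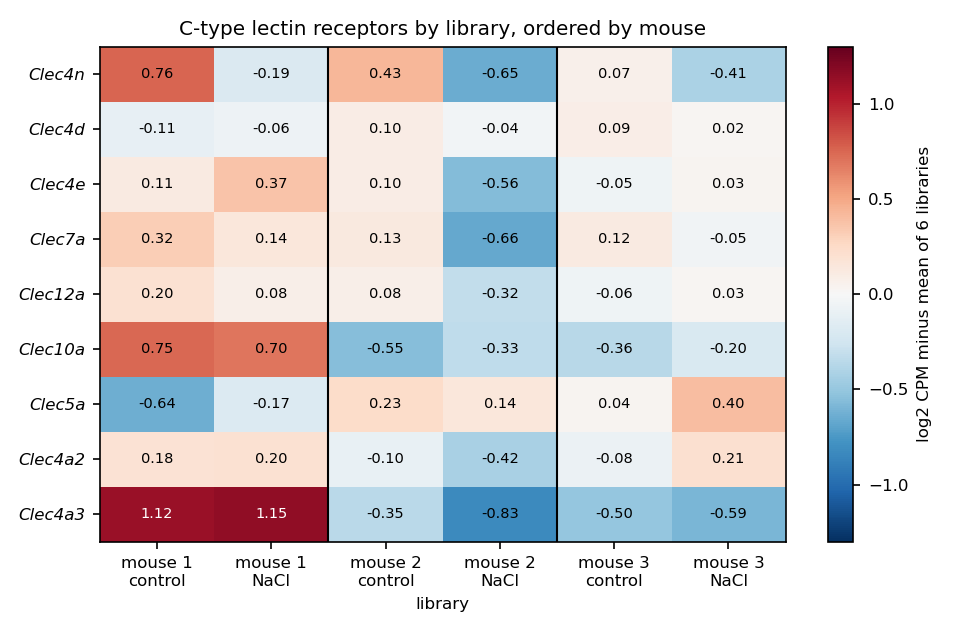
Log2 CPM of each receptor in each library minus the gene's mean over the 6 libraries, with libraries ordered by mouse. *Clec4a3* stands at 1.12 and 1.15 in the libraries of mouse 1 and between -0.83 and -0.35 in the others, and *Clec10a* at 0.75 and 0.70 against -0.55 to -0.20.

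Other genes moved with mouse 1 in the same way. *Clec4a1*, which lies beside *Clec4a3* on chromosome 6, was at 57.2, 13.5 and 11.2 CPM in control and at 44.9, 20.2 and 21.8 CPM in NaCl (mouse test, edgeR adjusted p = 6.66e-07). *Mrc1*, the mannose receptor and a marker of alternatively activated macrophages, was at 657, 273 and 166 CPM in control and at 343, 103 and 110 CPM in NaCl (adjusted p = 1.01e-08). In each treatment group, mouse 1 held the highest value of both genes. Of the 24 other C-type lectin genes tested, 6 differed between mice, beside 8.89% of all genes tested. *Clec4a1*, *Clec2d*, *Clec2i* and *Mrc1* had their highest mean in mouse 1, and *Olr1* and *Colec12* had their lowest there.

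Some markers of other myeloid cells moved with the mouse too. *Ccr2*, a chemokine receptor of inflammatory monocytes, was at 211, 83.3 and 98.2 CPM in control and at 258, 38.7 and 99.2 CPM in NaCl (mouse test, edgeR adjusted p = 3.51e-07). *H2-Ab1*, an MHC class II gene, was at 42.0, 19.3 and 19.0 CPM in control and at 53.9, 13.4 and 12.0 CPM in NaCl (adjusted p = 8.83e-07). Both were highest in mouse 1. By the mouse test 8.89% of all genes tested differed between mice. Among the markers it called 3 of 7 monocyte, 5 of 12 neutrophil and 1 of 9 dendritic cell genes. Apart from *Ccr2* and *H2-Ab1* these had their lowest mean in mouse 1, namely the monocyte-list genes *Fn1* (47.3 CPM against 129 and 95.6 CPM in mice 2 and 3) and *Ifitm6* and the neutrophil genes *S100a8*, *S100a9*, *Ngp*, *Ltf* and *Cd177*. Their part in the differences of *Clec4a3*, *Clec10a* and *Clec5a* was not tested.

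The pathway around the receptors was described from lists of its genes, again with the mouse as block, where 8.9% of all genes passed. None of 9 adaptors and proximal kinases passed, and their median log2 fold change was -0.10. *Fcer1g*, which the gamma-chain-coupled receptors need at the surface, was at 623, 630 and 629 CPM in control and at 588, 547 and 539 CPM in NaCl (log2 fold change -0.17, edgeR adjusted p = 0.433). *Tyrobp* had a log2 fold change of -0.15 (adjusted p = 0.521) and *Syk* of -0.09 (adjusted p = 0.711). All 3 NaCl libraries lay below the control libraries for *Fcer1g*, though by amounts that did not pass the test. Groups did not overlap, in either direction, for 19.0% of all genes tested.

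None of 18 genes of the CARD9 branch passed, with a median of 0.06, and *Card9* itself had a log2 fold change of 0.05 (edgeR adjusted p = 0.876). None of 3 phosphatase genes passed either, and *Ptpn6*, which encodes SHP-1, had a log2 fold change of 0.14 (adjusted p = 0.528).

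Of 11 tested output genes of Syk and CARD9 signalling, 2 were higher with the block and 0 were lower. Over all 15903 genes, 732 were higher and 684 lower. The median log2 fold change of the 11 was 0.34, with 8 above 0 and 3 below, none of the latter past the threshold. *Tnf*, the inflammatory cytokine, was at 9.66, 8.88 and 13.6 CPM in control and at 15.2, 12.7 and 29.5 CPM in NaCl (log2 fold change 0.78, edgeR adjusted p = 0.00280). *Ptgs2*, the inducible cyclooxygenase, was at 1.59, 2.26 and 3.13 CPM in control and at 3.91, 5.17 and 14.1 CPM in NaCl (log2 fold change 1.65, adjusted p = 9.77e-05). Both rose in 3 of 3 mice, and many other stimuli induce these genes. Without the block neither passed in edgeR (adjusted p = 0.344 and 0.20), whereas in DESeq2 *Ptgs2* passed (adjusted p = 0.0199) and *Tnf* did not (adjusted p = 0.190). DESeq2 with the block called both.

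Of the 42 other C-type lectin genes listed, 24 reached 10 counts and 5 passed with the block, *Cd302* as higher and *Mrc1*, *Pla2r1*, *Clec2d* and *Cd93* as lower, beside 8.9% of all genes, while 0 passed without it. DESeq2 with the same block called *Mrc1* alone, with adjusted p-values of 0.263 for *Clec2d*, 0.0512 for *Cd93* and 0.108 for *Cd302* and none given for *Pla2r1*. *Mrc1* fell in each mouse (log2 fold change -0.98, edgeR adjusted p = 1.40e-05 with the block and 0.505 without). *Clec2d*, a ligand of NK cell receptors, had a log2 fold change of -0.57 (adjusted p = 0.0488), and *Cd93*, a receptor with a lectin-like domain, of -0.40 (adjusted p = 0.0373). *Cd302* had one of 0.42 (adjusted p = 0.0406). *Clec4b1*, a neighbour of *Clec4a2*, had one of -0.46 and did not pass (adjusted p = 0.0922). The level of *Pla2r1* was at most 2.36 CPM. *Cd209f* had no count in NaCl, and over the other 23 genes the median was -0.32, beside -0.02 over all genes tested. The gene at this median had only 2 to 11 reads in a library (0.27 to 0.57 CPM). Of all 24, 11 had log2 fold changes above 0 and 13 below.

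Of 13 transcription factors of myeloid receptor genes, *Cebpb* alone passed with the block, as higher (log2 fold change 0.70, edgeR adjusted p = 0.000732). This 1 call stands beside 8.9% of all genes. Without the block 0 passed (*Cebpb*, edgeR adjusted p = 0.249). *Cebpb* was at 36.8, 52.9 and 59.6 CPM in control and at 61.1, 107 and 75.7 CPM in NaCl. All NaCl libraries were above all control libraries, beside 19.0% of all genes tested whose groups did not overlap in either direction. *Spi1*, which encodes PU.1, had a log2 fold change of 0.25 (adjusted p = 0.219). The C/EBP type motif was matched in the windows of *Clec4e* and *Clec12a*, and no window was found for *Clec4n* or *Clec10a*. A link between *Cebpb* and the receptors was not tested.

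**Figure D5:**
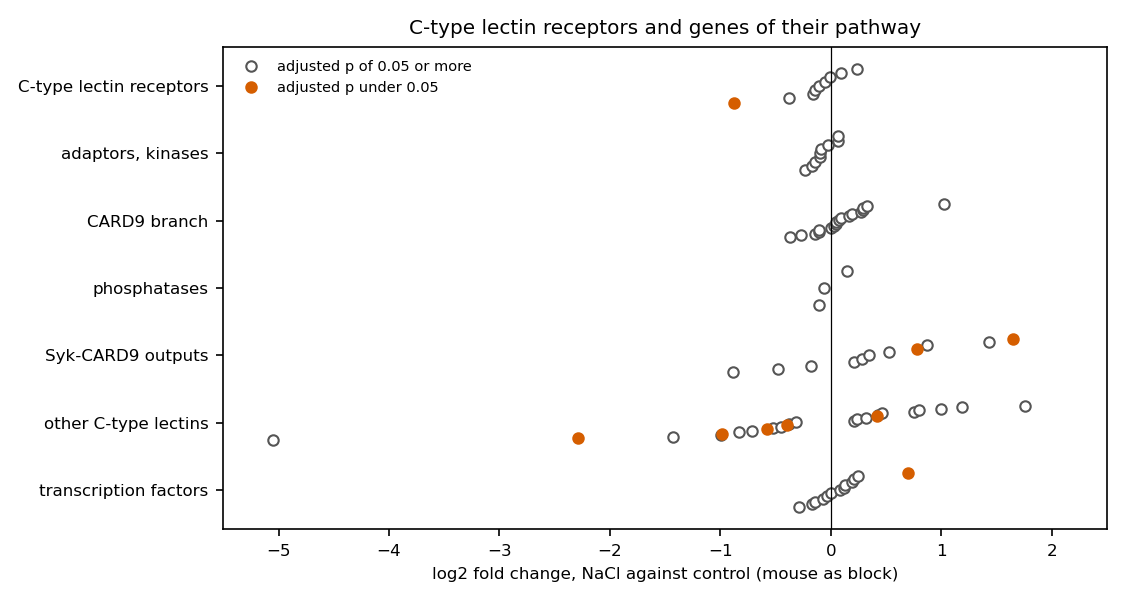
Log2 fold changes of NaCl against control (edgeR, mouse as block) for the 9 receptors and for 6 lists of genes around them, where filled points passed the threshold of 0.05 on the adjusted p-value. *Clec4n* at -0.88 is the only filled point among the receptors and *Clec7a* at -0.38 is next to it, the adaptors and phosphatases lie between -0.23 and 0.14, and the point at -5.05 is *Cd209f*, which had no count in NaCl, so that its fitted value does not measure the size of a change.

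Genes whose levels ran most like those of *Clec4n* over the 6 libraries were sought among 9923 genes with a mean of at least 50 counts. By Pearson's r of log2 CPM they were *Dph3* (0.993), *Ap3b1* (0.993) and *Trmt13* (0.991). Their log2 fold changes with the block were smaller than that of *Clec4n*, at -0.23, -0.15 and -0.34. With 6 libraries from 3 mice and so many candidates, high coefficients arise readily, and they are given as a description.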

How the data were processed

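Polyadenylated RNA was sequenced as 75-base single-end reads, counted without strand information. According to the submitters' processing notes and the methods, the authors used CASAVA 1.8.2, fastp 0.20.0, STAR 2.7.10b and DESeq2 1.40.2. They deposited raw counts of reads per gene, used here, and a normalized signal, which is these counts divided by one DESeq2 size factor per library. The methods name mm10 and an annotation that belongs to another build, so genes were matched by identifier to GENCODE M21 and RefSeq (GRCm38.p6) for lengths and sequences, and sequence positions refer to RefSeq.

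Genes with 10 or more counts in all were fitted in edgeR 4.0.16 (R 4.3.3, TMM, quasi-likelihood test of NaCl against control, no other term, as the methods name none), with p-values adjusted over 15903 genes and a threshold of 0.05. DESeq2 1.42.0 was an alternative. Library totals were 4088065 to 20123570 counts, and members had between 16 and 9063 counts in a library. Mouse numbers pair the libraries, and because libraries of one mouse share the animal, the fit with the mouse as block is given beside the other. Deviations from the group means correlated across genes with 0.43, 0.15 and 0.22 within a mouse, against -0.35 to 0.12 for other pairs. As deviations within a group sum to 0, these correlations depend on one another, and that of mouse 2 is near the highest other pair. They are a description only. The members, lists and tests were chosen with earlier results of these data known. Genes named were the 9 members, list genes past the threshold, the pathway genes Fcer1g, Tyrobp, Syk, Card9, Ptpn6, Clec4a1, Clec4b1, Mrc1, Spi1 and Cebpb, and the 3 genes most like each member past the threshold with the block. The lectins and markers named for the mouse test were chosen after their values were seen. Lists of B cell, erythroid, mast cell and stromal markers held at most 10.4, 0.24, 4.89 and 4.04 CPM in a library. The fits were tested on simulated counts. All changes planted there were larger than that fitted for *Clec4n*, so this does not bear on its call.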

Additional observations from a re-analysis of the deposited data

How the results depend on the processing

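The fit with the mouse as replicate block moved the counts over all genes from 76 higher and 28 lower to 732 and 684, and the receptors lower in NaCl from 0 to 1 (*Clec4n*). Other settings gave 245 and 155 genes (DESeq2), 452 and 354 (DESeq2 with the block), 362 and 300 (minimum total count of 1) and 463 and 346 (thinned libraries with the block). Leaving out 1 library gave 8 to 123 genes higher and 0 to 46 lower, and leaving out mouse 1, 2 or 3 with the block gave 469, 758 and 715 higher and 417, 661 and 585 lower. The receptors higher in NaCl numbered 0 to 1 (*Clec5a*, without mouse 2) and those lower 0 to 2 (*Clec4n* and *Clec7a*, without mouse 3). Over the 6 lists of pathway and related genes, cell type markers aside, edgeR called 0 genes without the block and 8 with it, and DESeq2 called 1 and 4. The receptors that differed between mice numbered 3, where 8.89% of all genes tested did. With 1 library left out they numbered 1 to 7, with 1 without control replicate 1 and 7 without control replicate 2. The share of all genes in those fits is not given, so these counts are a description only.

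The 9 receptors under 18 alternatives gave 162 log2 fold changes, of which 136 kept direction and side of the threshold, 4 moved past it, all with the block (*Clec4n* with all mice and without mouse 3, *Clec7a* without mouse 3, *Clec5a* without mouse 2), and 22 changed sign without passing. Sign changes with all libraries were those of *Clec4e* in thinned libraries (0.064, and 0.035 with the block) and of *Clec4a2* (-0.0084 with the block, -0.0016 at a minimum total count of 1, -0.0029 thinned, -0.020 thinned with the block). With 1 library left out, log2 fold changes ran from -0.323 to 0.181 for *Clec4e*, -0.308 to 0.602 for *Clec10a*, -0.086 to 0.201 for *Clec4a2* and -0.984 to 0.659 for *Clec4a3*. With the block and 1 mouse left out, they ran from -0.0911 to 0.00117 for *Clec4d*, -0.292 to 0.187 for *Clec4e*, -0.145 to 0.155 for *Clec4a2* (-0.00778 without mouse 1) and -0.285 to 0.000397 for *Clec4a3*. The causes were not tested. The replicate block changed no other receptor's call. The precision for *Clec4n* rests on 16 to 106 reads in a library.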
